A study of Oryza sativa with 12 samples.

Results

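The genes described here make the proteins that mark replication origins and run the replication fork. They are the origin recognition complex genes OsORC1 to OsORC4, the clamp loader genes OsRFC1 and OsRFC4, the sliding clamp gene OsPCNA, the DNA polymerase delta gene OsPOLD1, the flap endonuclease gene OsFEN1A and the chromatin assembly gene FAS2. Members were taken by these 10 names, as symbol or synonym, and the name OsORC1 belongs to 2 genes in the reference gene table. One lies on chromosome 6 and also carries the name ORC1, and the other lies on chromosome 3 and also carries the name ORC5. The second is called ORC5 below. This gave 11 genes with 13 probe sets, out of 17905 named genes and 57194 probe sets measured, and all 13 were assigned to a single gene. OsORC4 and OsFEN1A have a pair of probe sets each, and unless stated otherwise the brighter of the pair, by its mean across arrays, stands for the gene.

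Levels come from Affymetrix rice arrays of whole young panicles of paddy-grown plants, in 4 groups of 3 biological replicates: osmads1 at 2 mm, wild type at 2 mm, osmads1 at 5-7 mm and wild type at 5-7 mm. OsMADS1 encodes a floral MADS-box transcription factor, and the labels give neither the osmads1 allele nor the genetic background of the plants. Inner floral organs begin to form in the shorter panicles, and the longer ones are late in organ development. The study asked what OsMADS1 does at each of these steps.

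Before a cell copies its DNA, the origin recognition complex sits on replication origins and, with loading factors, places the MCM helicase there. At the fork, the RFC complex loads the PCNA ring onto DNA, the ring holds DNA polymerase delta in place, and flap endonuclease trims the ends of lagging-strand fragments. The CAF-1 complex, of which FAS2 is a subunit, puts histones onto the newly made DNA. Transcripts of many such genes peak around S phase, and in a plant organ they are known as marks of tissue that is still dividing.

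Values are log2 levels, given per array or as mean ± SD (n = 3), and a difference (± SE) is the osmads1 mean less the wild-type mean, with two-sided adjusted p-values from limma over all 57194 probe sets and a threshold of 0.05. The median of an array was between 4.1 and 4.13 for the short panicles and between 4.93 and 5.00 for the long ones. Levels were therefore not tested across lengths. The OsMADS1 probe set read 3.49 to 5.25 on the 6 osmads1 arrays and 10.57 to 11.61 on the 6 wild-type arrays, as the labels would have it.

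In osmads1 panicles of 2 mm, 10 of the 11 genes were lower than in wild type by limma's test, and all 11 estimates lay below 0. In osmads1 panicles of 5-7 mm, 6 of the 11 were higher and 0 were lower, the estimate of OsORC2 alone lying below 0 (adjusted p = 0.639). Of all 17905 genes, 12.1% were called lower and 10.2% higher at 2 mm, and 13.3% were called higher and 19.4% lower at 5-7 mm. The 3 osmads1 arrays lay below the 3 wild-type arrays for 10 of the 11 genes at 2 mm and for 25.5% of all genes. They lay above them for 8 of the 11 at 5-7 mm and for 22.4% of all genes. Both calls together were made for 6 of the 11 genes (ORC5, OsORC3, OsORC4, OsPCNA, OsPOLD1 and FAS2) and for 3.57% of all genes. The median difference of the 11 was -0.36 at 2 mm and 0.66 at 5-7 mm, where that of all genes was -0.02 at both lengths. In whole panicles, fewer dividing cells and less RNA per cell cannot be told apart.

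**Figure D1:**
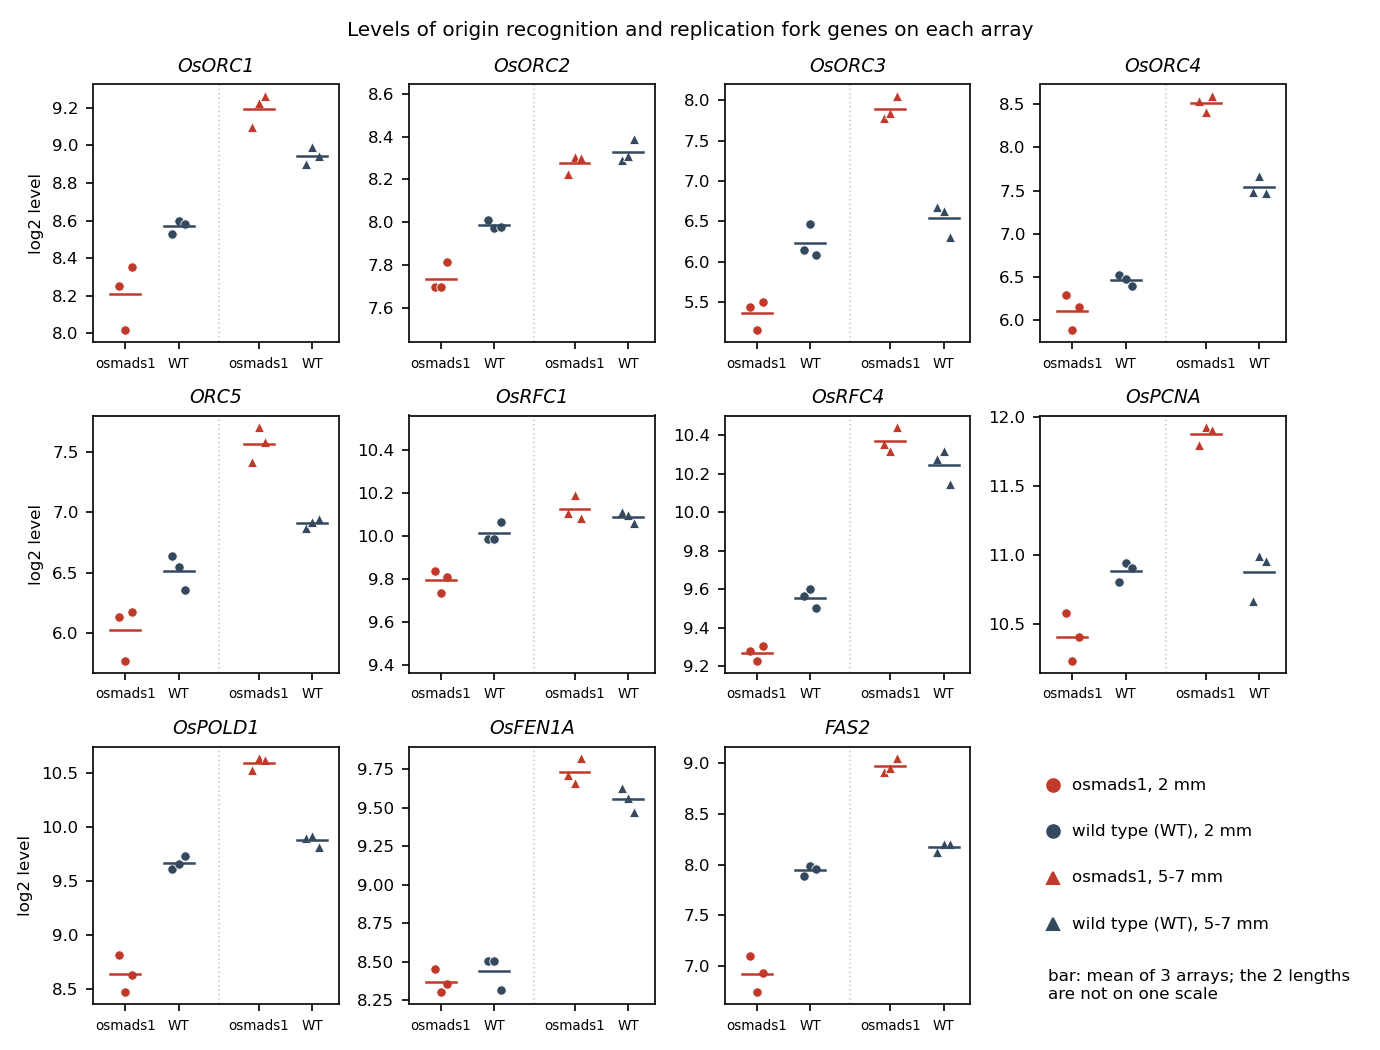
Log2 level of each of the 11 genes on each of the 12 arrays (points) with the mean of the 3 arrays of a group (bars), osmads1 in red left of wild type (WT) in dark blue, 2 mm as circles and 5-7 mm as triangles; each panel has its own axis, which does not start at 0. In 10 of the 11 panels the 3 osmads1 arrays at 2 mm lie below the 3 wild-type arrays, and in 8 panels the 3 osmads1 arrays at 5-7 mm lie above them.

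All 5 origin recognition genes fell at 2 mm, and OsORC3, OsORC4 and ORC5 rose at 5-7 mm. OsORC3, on chromosome 10, read 5.44, 5.15 and 5.51 on the osmads1 arrays at 2 mm, against 6.14, 6.46 and 6.09 on the wild-type arrays. It read 7.78, 7.85 and 8.05 on the osmads1 arrays at 5-7 mm, against 6.68, 6.63 and 6.31 on the wild-type arrays. At neither length did the genotypes overlap, with all mutant arrays low at 2 mm and high at 5-7 mm. OsORC3 fell 1.82-fold at 2 mm (-0.86 ± 0.13, adjusted p = 0.000781) and rose 2.55-fold at 5-7 mm (1.35 ± 0.13, adjusted p = 9.21e-06).

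OsORC4, on chromosome 1, was read by a pair of probe sets. The brighter one gave 6.29, 5.88 and 6.15 in osmads1 and 6.52, 6.48 and 6.39 in wild-type panicles at 2 mm (-0.36 ± 0.10, adjusted p = 0.0389). At 5-7 mm it gave 8.53, 8.41 and 8.59 in osmads1 and 7.49, 7.67 and 7.47 in wild type, a 1.96-fold rise (0.97 ± 0.10, adjusted p = 1.58e-05). The brighter one is of a kind, with the suffix _s_at, whose probes can also match other transcripts. The dimmer probe set also rose at 5-7 mm (0.94 ± 0.11, adjusted p = 3.69e-05), with 7.04 ± 0.23 in osmads1 and 6.10 ± 0.16 in wild-type panicles. At 2 mm it did not pass (-0.19 ± 0.11, adjusted p = 0.346), although its 3 osmads1 arrays (4.11 to 4.21) lay below the 3 wild-type arrays (4.31 to 4.40).

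ORC5, the chromosome 3 gene that shares the name OsORC1, followed the same course. Its arrays read 6.13, 5.77 and 6.18 in osmads1 and 6.64, 6.54 and 6.36 in wild-type panicles at 2 mm (-0.49 ± 0.11, adjusted p = 0.0133). At 5-7 mm they read 7.42, 7.71 and 7.58 in osmads1 and 6.87, 6.92 and 6.94 in wild type (0.66 ± 0.11, adjusted p = 0.000999). The genotypes thus stood apart on every array of both lengths, in opposite directions.

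OsORC1 and OsORC2 fell at 2 mm and did not pass the threshold at 5-7 mm. OsORC1, whose product is the largest subunit of the complex in most eukaryotes, read 8.25, 8.02 and 8.35 in osmads1 at 2 mm, against 8.53, 8.60 and 8.58 in wild type (-0.36 ± 0.088, adjusted p = 0.0154). At 5-7 mm its osmads1 arrays read 9.10, 9.22 and 9.26 and its wild-type arrays 8.90, 8.99 and 8.94, without overlap (0.25 ± 0.088, adjusted p = 0.0614). The OsORC1 difference at 5-7 mm passed after a filter on dim probe sets, after quantile normalization, with an intensity trend in the variance and without osmads1 replicate 2 of 2 mm (adjusted p of 0.0186 to 0.16 over all alternatives). OsORC2, on chromosome 3, averaged 7.74 ± 0.068 in osmads1 and 7.99 ± 0.019 in wild-type panicles at 2 mm (-0.25 ± 0.067, adjusted p = 0.0245). At 5-7 mm OsORC2 averaged 8.28 ± 0.043 in osmads1 and 8.33 ± 0.052 in wild type, and the arrays of the genotypes overlapped (95% interval of the difference -0.20 to 0.09).

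At the fork, the polymerase and clamp genes fell at 2 mm and rose at 5-7 mm, while the clamp loader genes OsRFC1 and OsRFC4 passed the threshold at 2 mm only. OsPOLD1, on chromosome 11, encodes the catalytic subunit of DNA polymerase delta. Its arrays read 8.82, 8.47 and 8.64 in osmads1 and 9.62, 9.65 and 9.73 in wild-type panicles at 2 mm, a 2.03-fold fall (-1.02 ± 0.087, adjusted p = 5.17e-06). At 5-7 mm they read 10.53, 10.64 and 10.62 in osmads1 and 9.89, 9.91 and 9.82 in wild type, a 1.65-fold rise (0.72 ± 0.087, adjusted p = 5.25e-05). The gap between the genotypes was several times the spread among replicates at both lengths. The OsPOLD1 probe set is of the _s_at kind as well.

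OsPCNA, on chromosome 2, encodes the ring that holds the polymerase on DNA. It read 10.58, 10.23 and 10.40 in osmads1 at 2 mm, against 10.80, 10.94 and 10.90 in wild type, a 1.39-fold fall (-0.48 ± 0.10, adjusted p = 0.00851). At 5-7 mm it read 11.79, 11.93 and 11.91 in osmads1, against 10.67, 10.99 and 10.96 in wild type, a 2.00-fold rise (1.0 ± 0.10, adjusted p = 1.51e-05). The highest wild-type array at 5-7 mm lay well below the lowest osmads1 array.

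OsRFC1 and OsRFC4 encode the large subunit and a small subunit of the clamp loader. OsRFC1, on chromosome 11, averaged 9.79 ± 0.054 in osmads1 and 10.01 ± 0.046 in wild-type panicles at 2 mm (-0.22 ± 0.066, adjusted p = 0.0488), just inside the threshold. At 5-7 mm it averaged 10.13 ± 0.057 in osmads1 and 10.09 ± 0.025 in wild type, with overlapping arrays (95% interval of the difference -0.11 to 0.18). OsRFC4, on chromosome 4, averaged 9.27 ± 0.041 in osmads1 and 9.56 ± 0.051 in wild-type panicles at 2 mm (-0.29 ± 0.071, adjusted p = 0.0189). At 5-7 mm OsRFC4 averaged 10.37 ± 0.064 in osmads1 and 10.25 ± 0.088 in wild type, again with overlap (0.12 ± 0.071, adjusted p = 0.258).

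FAS2, on chromosome 8, encodes a subunit of the histone chaperone CAF-1. It read 7.09, 6.74 and 6.92 in osmads1 at 2 mm, against 7.89, 7.98 and 7.96 in wild type, a 2.04-fold fall (-1.03 ± 0.088, adjusted p = 5.54e-06). At 5-7 mm it read 8.91, 8.96 and 9.05 in osmads1, against 8.13, 8.20 and 8.20 in wild type, a 1.74-fold rise (0.80 ± 0.088, adjusted p = 2.41e-05). The genotypes stood apart on every array, low in the mutant at 2 mm and high at 5-7 mm.

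OsFEN1A, on chromosome 5, encodes the nuclease that removes flaps from lagging-strand fragments, and its differences passed at neither length. Its brighter probe set averaged 8.37 ± 0.075 in osmads1 and 8.44 ± 0.11 in wild-type panicles at 2 mm, with overlapping arrays (95% interval of the difference -0.25 to 0.10). At 5-7 mm the 3 osmads1 arrays (9.66 to 9.82) lay above the 3 wild-type arrays (9.47 to 9.63), with a difference of 0.17 ± 0.082 (adjusted p = 0.159). A second probe set averaged 3.31 in osmads1 and 3.36 in wild-type panicles at 2 mm, and 3.94 and 4.08 at 5-7 mm in the same order. These levels are close to the upper quartile of the 64 reporter controls (3.26 in both genotypes at 2 mm, and 3.81 in osmads1 and 3.95 in wild-type panicles at 5-7 mm), so that this probe set carries little signal.

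**Figure D2:**
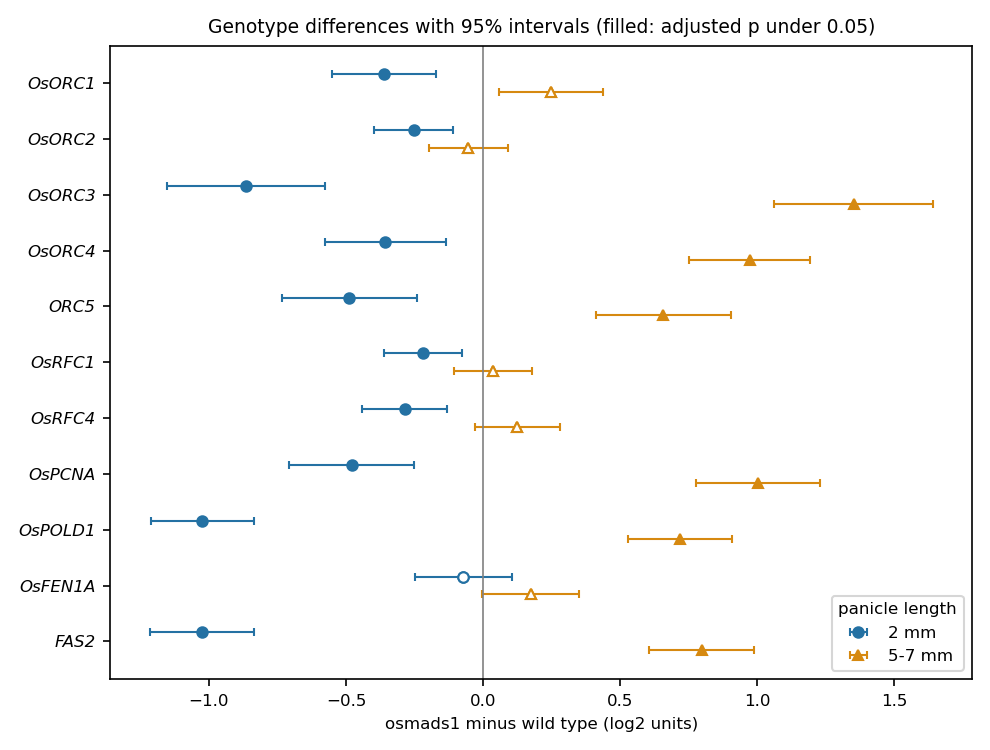
Difference of osmads1 minus wild type in log2 units (horizontal axis) for each of the 11 genes, with its 95% interval, at 2 mm (blue circles) and 5-7 mm (orange triangles); filled symbols have an adjusted p under 0.05. Filled circles all lie left of 0 and filled triangles all right of 0, and OsFEN1A has open symbols at both lengths.

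The number of calls at 2 mm depended on single arrays. On osmads1 replicate 2 of this length, 10 of the 11 genes read lowest among the 3 mutant arrays. Of the 11 genes, 4 were called lower without that array, 5 without wild-type replicate 1 and 4 without wild-type replicate 2. Calls over all probe sets also fell in these fits. With all arrays 3593 of 57194 probe sets were called lower at 2 mm, against 2515, 2549 and 2549 in the same order. The estimates stayed below 0 for all 11 genes whichever array was left out. OsORC3, OsPCNA, OsPOLD1 and FAS2 kept their call at 2 mm under every alternative run. Calls were lost for OsRFC4 in 4, ORC5 in 3 and OsORC1 in 2 of 19 alternatives. The call of OsRFC1 was lost in 15 of 19 alternatives (adjusted p up to 0.157), that of OsORC4 in 8 of 19 and that of OsORC2 in 7 of 19. The 6 calls at 5-7 mm were kept under every alternative.

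Other readings also moved with genotype at 2 mm. For a GAPDH control the probe set at the 3' end less that at the 5' end, a measure of how intact the labelled RNA is, gave 2.58 ± 0.059 in osmads1 and 3.58 ± 0.042 in wild type, and in 4 of 7 such control pairs the 3 osmads1 arrays lay below the 3 wild-type arrays. At 5-7 mm 1 of the 7 pairs stood apart, EF1a, with -2.65 ± 0.068 in osmads1 and -3.06 ± 0.085 in wild type. The GAPDH pair with the widest gap at 2 mm overlapped at 5-7 mm (2.24 ± 0.44 in osmads1 and 2.10 ± 0.16 in wild type). Of 5 tapetum and pollen markers 4 were higher at 2 mm, with a mean log2 level of 4.59 to 4.74 over the osmads1 arrays and 3.25 to 3.36 over the wild-type arrays. At 5-7 mm 0 of 5 were called by limma, 0 also at an unadjusted p under 0.05. Some of these probe sets are dim. At 2 mm EAT1 (3.19 in osmads1 and 2.70 in wild type) and CYP703A3 in wild type (2.96) read below the upper quartile of the reporter controls (3.26). At 5-7 mm TDR, EAT1 and CYP703A3 read below that quartile (3.81 in osmads1 and 3.95 in wild type) in both genotypes. Of 6 photosynthetic tissue markers 4 were higher at 2 mm (7.05 to 7.45 in osmads1 and 6.23 to 6.43 in wild-type panicles). At 5-7 mm 2 of the 6 were higher and 1 lower (6.74 to 7.21 in osmads1 and 6.49 to 6.72 in wild type). The median difference of the 6 was -0.02 at that length, with 3 estimates above 0 and 3 below. Of 4 shoot and inflorescence meristem markers 1 was lower at 2 mm (8.95 to 9.17 in osmads1 and 9.28 to 9.31 in wild-type panicles). At 5-7 mm 3 of them were higher and 1 lower (9.76 to 9.99 in osmads1 and 9.03 to 9.24 in wild type). Of 7 floral organ identity genes 6 were lower at 2 mm (6.10 to 6.28 in osmads1 and 7.23 to 7.73 in wild type) and 7 at 5-7 mm (8.01 to 8.57 in osmads1 and 9.70 to 9.94 in wild type). Among all genes the shares called were 10.2% higher and 12.1% lower at 2 mm, and 13.3% higher and 19.4% lower at 5-7 mm. The part of these control and marker readings in the replication gene results was not tested.

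Whether the genotype difference itself changed with length was tested as an interaction, the difference at 5-7 mm minus that at 2 mm. It was above 0 and past the threshold for 8 of the 11 genes, against 17.2% of all genes, while 19.2% of all genes were called below 0. All 11 estimates lay above 0. The largest was that of OsORC3 (2.22 ± 0.19, adjusted p = 2.38e-06), followed by FAS2 (1.82 ± 0.12, adjusted p = 3.2e-07) and OsPOLD1 (1.74 ± 0.12, adjusted p = 4.38e-07), whose 95% intervals overlap that of OsORC3. OsPCNA (1.48 ± 0.15), OsORC4 (1.33 ± 0.14) and ORC5 (1.15 ± 0.16) came next, and OsORC1 (0.61 ± 0.12, adjusted p = 0.00278) and OsRFC4 (0.41 ± 0.10, adjusted p = 0.00986) had smaller interactions. These 8 calls were kept under every alternative run.

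OsRFC1 (0.25 ± 0.093, adjusted p = 0.0712), OsFEN1A (0.25 ± 0.12, adjusted p = 0.16) and OsORC2 (0.20 ± 0.094, adjusted p = 0.165) did not pass the interaction test. Within the origin recognition complex the 95% interval was 1.81 to 2.62 for OsORC3 and -0.0041 to 0.40 for OsORC2. These intervals do not overlap, but they belong to the largest and the smallest interaction of the complex, picked after the values were seen. The difference between OsORC3 and OsORC2 was not tested.

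The likeness of the genes' profiles was then described. After the mean of each length was subtracted, the 55 pairs of genes had Pearson correlations of 0.06 to 0.99 over the 12 arrays, with a median of 0.79. The arrays share their groups and their normalization, so that this describes the profiles and is no test. OsPOLD1 and FAS2 were most alike (0.99), then OsORC4 and OsPCNA (0.97), and OsORC2 stood furthest from the others (median 0.52).

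Within each array, the position of a gene among all probe sets needs no common scale, and positions were set side by side across lengths. From 2 mm to 5-7 mm, 9 of the 11 genes had a higher percentile in osmads1, where 51.6% of all genes did. In wild type 3 of the 11 had a higher percentile, where 51.9% of all genes did. The median change was 4.8 percentile points in osmads1 and -2.11 in wild type. OsORC3 stood at percentile 64.2 at 2 mm and 79.1 at 5-7 mm in osmads1, and at 71.5 and 68.1 in wild type. FAS2 stood at 76.6 and 87.7 in osmads1 and at 84.7 and 81.1 in wild type. OsPCNA was near the top throughout, at 97.8 and 99.2 in osmads1 and at 98.6 and 97.5 in wild type. OsFEN1A had a higher percentile at 5-7 mm in both genotypes, 88.0 and 92.8 in osmads1 and 88.4 and 91.6 in wild type, as did OsORC4 and OsRFC4. OsRFC1 and OsORC2 had a lower one in both. These positions were not tested, nor was the part of the processing in their change between lengths.

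**Figure D3:**
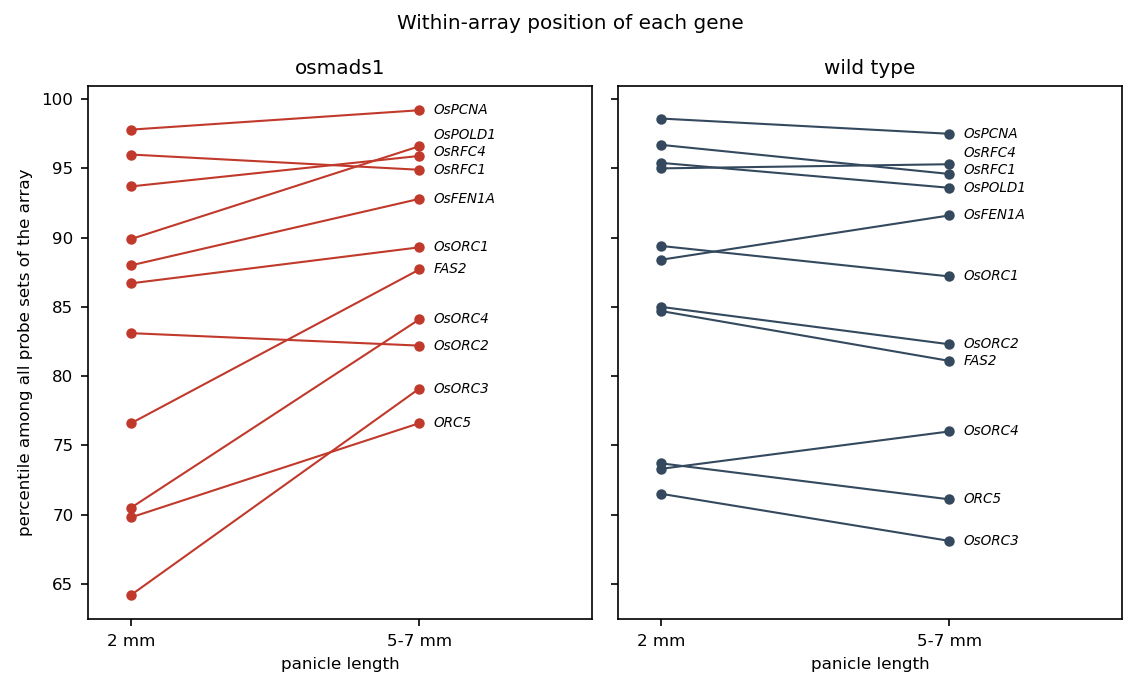
Mean percentile of each gene's probe set among all 57194 probe sets of the same array (vertical axis) at 2 mm and 5-7 mm, in osmads1 (left) and wild type (right). Lines rise for 9 of the 11 genes in osmads1 and for 3 of the 11 in wild type.

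Other DNA replication genes were counted in a list of 24 genes found by name. At 2 mm 17 of the 24 were lower and 0 higher, with a median difference of -0.49. At 5-7 mm 17 were higher and 1 lower, with a median of 0.51. The interaction was above 0 and past the threshold for 18 and below 0 for 1. Both calls, lower at 2 mm and higher at 5-7 mm, were made for 15 of the 24, against 3.57% of all genes. Of all genes, 12.1% were called lower and 10.2% higher at 2 mm, and 13.3% higher and 19.4% lower at 5-7 mm. The interaction was called above 0 for 17.2% of all genes and below 0 for 19.2%.

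Some partners of the described genes in their complexes were measured as well. The clamp loader has 3 more small subunit genes on the array, and all fell at 2 mm and rose at 5-7 mm. The difference was -0.45 at 2 mm and 0.32 at 5-7 mm for RFC2, -0.71 and 0.69 for RFC3, and -0.49 and 0.90 for RFC5. Their interactions were 0.77 ± 0.098, 1.39 ± 0.12 and 1.38 ± 0.12, and their 95% intervals lay above that of OsRFC1 (0.052 to 0.46). The interval of OsRFC4 (0.19 to 0.63) overlapped that of RFC2 (0.56 to 0.99) and lay below those of RFC3 and RFC5. POLD2, the second subunit gene of DNA polymerase delta, differed by -0.49 ± 0.082 at 2 mm (adjusted p = 0.00146) and 0.51 ± 0.082 at 5-7 mm (adjusted p = 0.000557). MSI1, named for a further CAF-1 subunit, fell at 2 mm (-0.26 ± 0.062, adjusted p = 0.0149) and differed by 0.11 at 5-7 mm (adjusted p = 0.262). Its 3 osmads1 arrays lay above the 3 wild-type arrays at 5-7 mm, and its interaction passed (0.36 ± 0.087, adjusted p = 0.00835).

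The helicase genes MCM2 to MCM7, whose products are loaded by the origin recognition complex, all fell at 2 mm and rose at 5-7 mm, with interactions of 1.78 for MCM3 to 2.12 for MCM7.

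The RPA genes encode the protein that coats single-stranded DNA at the fork. RPA1B, RPA1C, RPA2A, RPA2B and RPA3 fell at 2 mm and rose at 5-7 mm, RPA2A most in the interaction (1.89 ± 0.15, adjusted p = 1.05e-06). RPA2C alone among the 24 genes had an interaction below 0 past the threshold (-0.39 ± 0.10, adjusted p = 0.0135), from differences of -0.10 ± 0.072 at 2 mm (adjusted p = 0.476) and -0.50 ± 0.072 at 5-7 mm (adjusted p = 0.000248). TOP6B, a topoisomerase VI subunit gene, fell at 2 mm (-0.62 ± 0.086, adjusted p = 0.000354) and did not pass at 5-7 mm (0.22 ± 0.086, adjusted p = 0.0958). RBR1, a retinoblastoma-related gene, rose at 5-7 mm (0.65 ± 0.11, adjusted p = 0.000994) and did not pass at 2 mm (-0.32 ± 0.11, adjusted p = 0.0918). The interactions of TOP6B (0.84 ± 0.12, adjusted p = 0.00023) and RBR1 (0.98 ± 0.16, adjusted p = 0.0006) passed. The 5 genes of the list whose interaction did not pass were MCM8, MCM9, RPA1A, FEN1B and RBR2, named here after their values were seen. FEN1B, the second flap endonuclease gene, had an interaction of 0.13 ± 0.099 (adjusted p = 0.4).

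**Figure D4:**
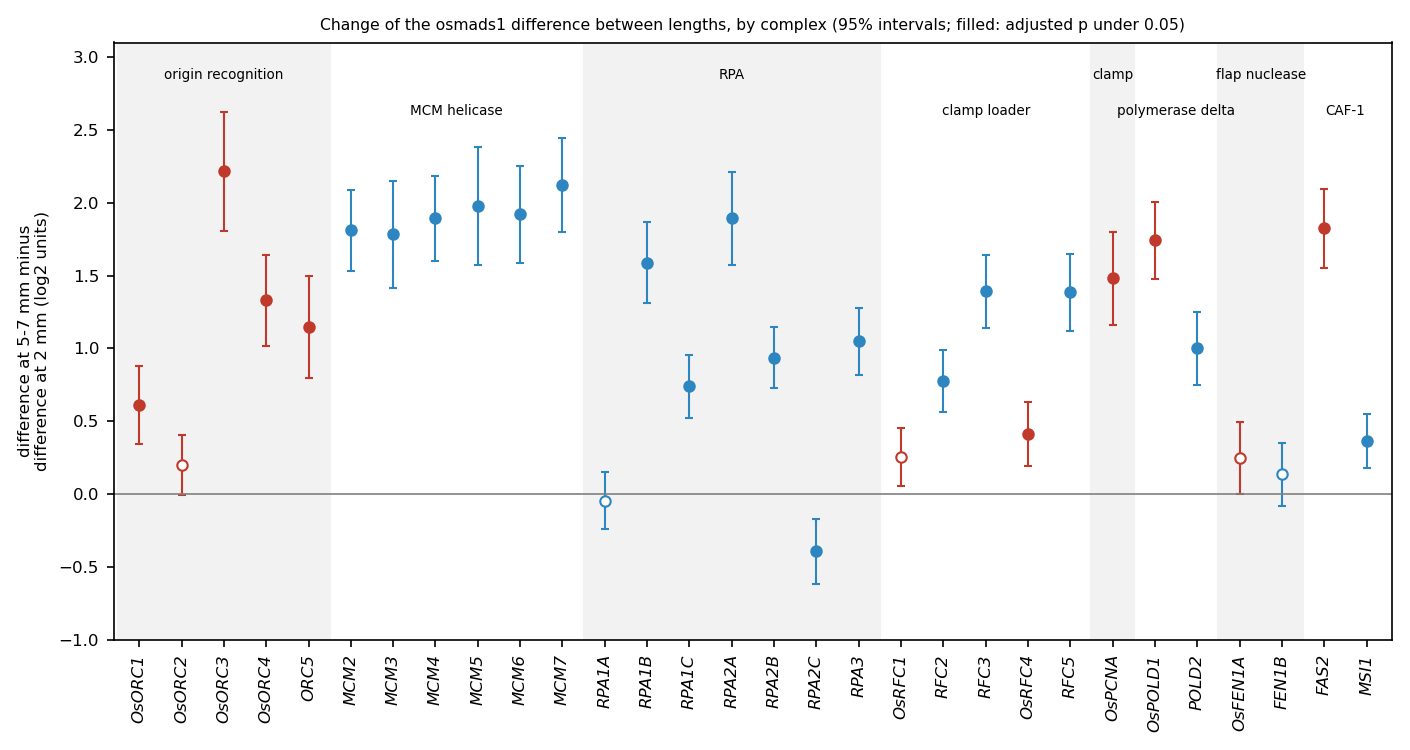
Difference at 5-7 mm minus difference at 2 mm in log2 units (vertical axis), with 95% intervals, for the 11 described genes (red) and for other replication genes (blue), grouped by complex; filled symbols have an adjusted p under 0.05. MCM2 to MCM7 lie between 1.78 and 2.12. Not drawn are MCM8 (-0.15), MCM9 (0.10), TOP6B (0.84), RBR1 (0.98) and RBR2 (0.16). Genes of the origin recognition complex spread from 0.20 for OsORC2 to 2.22 for OsORC3.

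Cyclin, cyclin-dependent kinase and histone H2B genes, which also go with cell division, were counted as a second list. Of 24 such genes 5 were lower and 0 higher at 2 mm, with a median difference of -0.16 and 18 estimates below 0. At 5-7 mm 7 of them were higher and 2 lower, with a median of 0.09. The interaction was above 0 and past the threshold for 10 of the 24 and below 0 for 3. Of all genes, 12.1% were called lower and 10.2% higher at 2 mm, and 13.3% higher and 19.4% lower at 5-7 mm. In the interaction 17.2% of all genes were called above 0 and 19.2% below 0. The largest changes were a 2 mm fall of CYCA2-1 (-0.49, adjusted p = 0.00152) and a 5-7 mm rise of CYCD5-3 (0.59, adjusted p = 2.15e-05). The difference between this list and the replication genes was not tested.

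**Figure D5:**
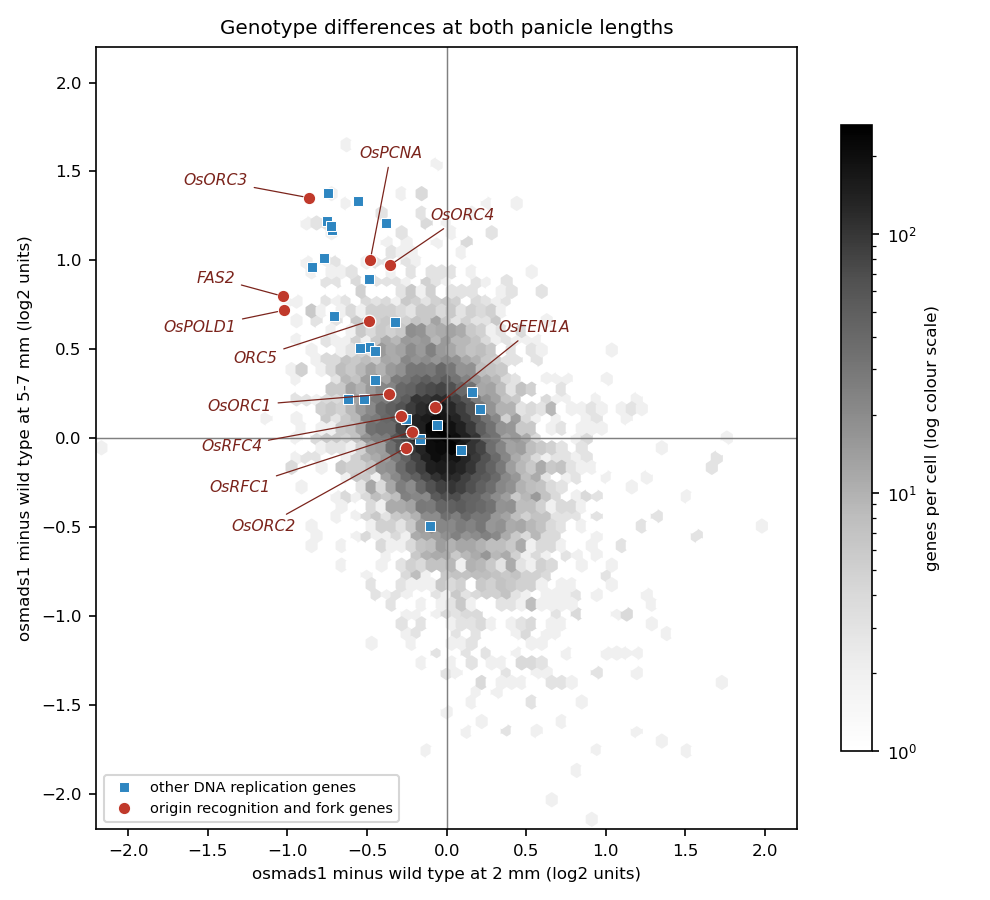
Difference of osmads1 minus wild type at 2 mm (horizontal axis) and at 5-7 mm (vertical axis), in log2 units, for 17716 genes (grey, log colour scale; 189 genes lie beyond the axes), other DNA replication genes (blue squares) and the 11 described genes (red circles). OsORC3, FAS2, OsPOLD1, OsPCNA, OsORC4 and ORC5 lie in the upper left, while OsFEN1A lies close to the bulk of the genes.

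Among genes with an informative name, those outside the set whose array profile was most like the mean profile of the 11 were found by Pearson correlation over the 12 arrays, with the mean of each length subtracted. They were OsRFC2 (0.990), OsSPS2 (0.989), MET1 (0.988), OsRFC3 (0.988) and CMT3 (0.982). Among all 17905 genes their ranks were 7, 8, 9, 11 and 25, and genes without an informative name ranked above OsRFC2. OsSPS2 differed by -0.43 at 2 mm (adjusted p = 0.00242) and 0.41 at 5-7 mm (adjusted p = 0.00165). MET1 and CMT3 are named for DNA methyltransferases, of which MET1 copies methylation onto new strands after replication in Arabidopsis. MET1 differed by -0.95 at 2 mm (adjusted p = 5.18e-05) and 0.84 at 5-7 mm (adjusted p = 6.7e-05), and CMT3 by -0.83 (adjusted p = 5.39e-05) and 0.83 (adjusted p = 2.28e-05). Of the members, each of which helps form that mean, FAS2 was the closest to the mean profile (0.984) and OsORC2 the furthest (0.574).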

How the data were processed

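Values are the deposited log2 levels of 12 arrays. Per the submitters' processing notes, the tools were Partek and RMA, in versions that no source used here gives. The RMA method makes no detection call and compresses the differences of dim probe sets. Array medians were close within a length and differed between lengths. The number of arrays limits the precision.

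Of the probe sets, 187 controls were left out and 57194 tested. The platform annotation gave 1 symbol for 22436 (17905 genes), several for 95 and none for 34663, and all 22436 matched the reference gene table (ASM3414082v1). A single model over the 12 arrays, with the 4 groups as means, was fitted by limma (version 3.58.1, R 4.3.3) with eBayes (8 residual and 4.74 prior degrees of freedom), with Benjamini-Hochberg adjustment, and checked on simulated arrays. P-values weigh a difference against the spread between these samples, estimated over the 4 groups together. No filter was applied. Figures were drawn with matplotlib 3.10.9.

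Members and lists were chosen with earlier results of these data known. Of 70 replication names searched, 24 genes besides the members were matched by name and had a probe set, and 40 names, among them CDC6, CDT1, PSF1, POLA1 and LIG1, were not matched. Named genes are OsMADS1, all members, list genes called in the interaction or largest in a genotype contrast, up to 2 division genes per contrast and the 5 named genes most like the members' mean profile. Alternatives were quantile normalization, median centring, a filter on dim probe sets, each length's own arrays, a trended robust variance prior, array weights, a replicate block, the most variable probe set per gene and leaving out each array.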

Additional observations from a re-analysis of the deposited data

Results flagged for a closer look

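The osmads1 difference changed between the lengths, by the interaction test in limma, for 8 of the 11 genes. The change, as the difference at 5-7 mm minus that at 2 mm in log2 units, was 2.22 for OsORC3, 1.82 for FAS2, 1.74 for OsPOLD1, 1.48 for OsPCNA, 1.15 for ORC5, 0.61 for OsORC1 and 0.41 for OsRFC4. OsORC4 changed by 1.33 and 1.14 on its 2 probe sets. Of all 17905 genes, 17.2% were called above 0 and 19.2% below 0 in this test.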

How the results depend on the processing

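Of 725 comparisons of a probe set and contrast with an alternative setting, 679 kept their direction and their side of the threshold, 39 lost the call, 6 gained one and 1 changed sign. The sign change was the interaction of the dim OsFEN1A probe set, 0.005 (adjusted p = 0.987) without osmads1 replicate 2 of 5-7 mm, in a range of -0.221 to 0.005 when 1 array was left out. With array weights 10552 probe sets were called at 2 mm, against 6737. The members called at 2 mm were 10, with a range of 4 to 10 when 1 array was left out. Over all probe sets the calls at 2 mm then ranged from 4717 to 6828. With the replicate number as a block 6 members were called at 2 mm, 6 at 5-7 mm and 8 in the interaction. Replicate numbers do not pair the arrays (deviations of same-numbered arrays correlated at -0.068 to 0.084), and this fit has fewer residual degrees of freedom. Other counts over members, over the 24 replication genes and over all probe sets stayed within 1.5 times. Under all alternatives run, quantile normalization included, the 8 member interactions kept sign and call. The second probe set of OsFEN1A reads near the reporter controls, which limits what it can show.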
